A study of Rattus norvegicus with 2 samples.

Results

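A set of 10 genes of the Notch pathway were described in single cells of rat dorsal root ganglia (DRG), the ganglia that hold the cell bodies of sensory neurons. They were the receptors Notch1, Notch2, Notch3 and Notch4, the ligands Jag1, Jag2, Dll1 and Dll4, and the target genes Hes1 and Hey1. They were listed by symbol, and each matched 1 identifier among the 30017 symbols and 32623 identifiers of the gene list. The DPN group (diabetic peripheral neuropathy) was male SD rats, 8 weeks old at the start, given a single intraperitoneal injection of 65 mg/kg streptozotocin (STZ), a toxin of pancreatic beta cells, and the Control group was rats of the same kind injected with citrate buffer only. DRGs were taken 8 weeks after injection, and the cells of 5 rats per group were pooled into 1 library, so the series held 1 DPN library and 1 Control library. No difference between rats could be measured, and no test between the groups was possible. STZ diabetes reflects loss of insulin, and pooling hides how single animals differ.

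Notch receptors sit in the cell membrane and are switched on by ligands of the Jagged and Delta-like families on a neighbouring cell. Binding lets the proteases ADAM10 and gamma-secretase cut the receptor, and the freed intracellular part enters the nucleus, where it works with the DNA-binding protein RBPJ to turn on Hes and Hey genes, which encode transcriptional repressors. The pathway is known for its roles in arteries, in the mural cells that wrap vessels, and in glia of the peripheral nervous system.

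RBPJ binds DNA around the letters TGGGAA, and 3 upstream stretches are shown because they place these letters in front of genes whose values are given below. They come from the RefSeq promoter table of build GRCr8, and the sources used here do not name the build used for counting. Capitals mark TGGGAA, or TTCCCA where it lies on the other strand. Hes1, a target gene, is shown from 153 to 74 bases before its start (chr11:84213119-84213198, minus strand). Hey2, a related target outside the 10 genes, is shown from 205 to 25 bases before its start (chr1:28640895-28641075, plus strand). Dll1, a ligand, is shown from 215 to 47 bases before its start (chr1:64993321-64993489, minus strand).
Hes1: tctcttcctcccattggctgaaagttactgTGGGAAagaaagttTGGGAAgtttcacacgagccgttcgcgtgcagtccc
Hey2: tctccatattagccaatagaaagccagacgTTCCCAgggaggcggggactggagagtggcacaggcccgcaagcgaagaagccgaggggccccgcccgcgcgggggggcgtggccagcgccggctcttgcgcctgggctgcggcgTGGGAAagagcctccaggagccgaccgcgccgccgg
Dll1: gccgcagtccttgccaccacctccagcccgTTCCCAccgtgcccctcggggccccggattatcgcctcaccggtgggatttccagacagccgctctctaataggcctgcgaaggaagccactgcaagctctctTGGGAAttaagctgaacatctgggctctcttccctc
In Hes1 the letters began 123 and 109 bases before the start, both on the strand of the gene. Hey2 and Dll1 each had 1 match on each strand. Of the 10 genes, 8 had a window in the table, and 3 of these held TGGGAA on either strand within 250 bases before the start (Hes1, Dll1 and Notch4). Among all 33469 windows of this length, 22.1% held it at least once and 2.71% at least 2 times. A match describes the letters only and is not a binding site shown by these data.

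The libraries held 115409375 unique molecular identifiers (UMIs, counts of single captured RNA molecules) in 13168 barcodes for DPN and 121101966 UMIs in 11011 barcodes for Control. Cells with at least 1000 UMIs and under 20% mitochondrial UMIs were kept, 11013 in DPN and 9798 in Control, and their median depth was 6446 UMIs in DPN and 9928 UMIs in Control. The libraries shared 38 barcodes. Cells were sorted into 5 gates and 3 comparison classes by marker genes, none of which was a gene described here. The DPN and Control libraries gave 3012 and 4135 satellite glia (Fabp7 and Tyrp1), 4217 and 3101 other glia (S100b below that gate), 1213 and 802 endothelial cells (Cldn5, Flt1 and Cdh5), 584 and 385 smooth muscle cells (Myh11), and 380 and 236 pericytes (Rgs5, Kcnj8 and Abcc9). The comparison classes held 322 and 199 fibroblasts, 196 and 150 macrophages, and 222 and 112 neurons. They were taken only from cells that passed none of the 5 gates. Mixed cells that passed a gate were thus left out of these classes but kept in the gates, so levels in the 2 kinds of class are not fully alike. A cell could pass more than 1 gate, and 3.55% of gated cells in DPN and 1.99% in Control did so. Levels are given in CPM, the UMIs of a gene per 1000000 UMIs of all cells in that class and library, and ratios are DPN over Control. All intervals are exact 95% intervals that cover counting error only.

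The labels of the gates were checked with other markers. The endothelial list (Kdr, Tek, Vwf and others) summed to 2278 CPM in DPN and 2331 CPM in Control endothelium, against 20.2 and 14.04 CPM in satellite glia. The mural list (Acta2, Tagln and others) summed to 9936 CPM in DPN and 15101 CPM in Control smooth muscle. The list for satellite glia did not separate the 2 glial gates, with 1172 CPM in DPN and 1142 CPM in Control satellite glia, against 1270.1 and 1247 CPM in the other glia, so the gate rests on Fabp7 and Tyrp1.

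Notch1 was the receptor found in nearly every class. Its level was 421 CPM in DPN and 326 CPM in Control endothelium, where it was highest in both libraries. Satellite glia followed with 262 CPM in DPN and 232 CPM in Control, then the other glia with 213 CPM in DPN and 182 CPM in Control. Neurons stood lowest, at 6.04 CPM in DPN and 6.42 CPM in Control. The first 3 places of this order had intervals that did not overlap with the next class in either library, whereas macrophages and fibroblasts overlapped. After each cell was thinned to 1000 UMIs, 22.1% of satellite glia in DPN and 20.1% in Control had a Notch1 UMI (87.0% and 90.6% unthinned), against 5.41% and 0.893% of neurons (23.0% and 30.4% unthinned). Neurons were far deeper, with median depths of 83958 UMIs in DPN and 116384 UMIs in Control, against 11145 and 13783 UMIs for satellite glia.

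The DPN over Control ratio of Notch1 was 1.29 in endothelium (interval 1.24 to 1.35), 1.38 in smooth muscle (1.17 to 1.62), 1.17 in the other glia (1.12 to 1.21) and 1.13 in satellite glia (1.10 to 1.16). None passed 1.5-fold in either direction, the change used here to call a gene. The middle gene also lay above 1 in glia, where genes with at least 100 UMIs had a median log2 ratio of 0.19 in satellite glia and 0.16 in the other glia, so the satellite glia ratio of Notch1 was that of the median gene (1.14). With a mitochondrial limit of 10% the ratio in the other glia was 0.995. In smooth muscle cells that passed no other gate Notch1 was at 106.7 CPM in DPN and 88.1 CPM in Control, a ratio of 1.21. In fibroblasts, where the median log2 ratio was 0.15, Notch1 had 157 UMIs in DPN and 70 UMIs in Control (ratio 1.37, 1.03 to 1.84).

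Notch2, a second broadly expressed receptor, was highest in fibroblasts, at 56.5 CPM in DPN and 41.9 CPM in Control, with satellite glia next at 45.9 and 37.2 CPM. These neighbours overlapped in both libraries. Endothelium, the class with most Notch1, had 7.61 CPM of Notch2 in DPN and 6.45 CPM in Control. The Notch2 ratio was 1.24 in satellite glia (1.16 to 1.32) and 1.23 in the other glia (1.12 to 1.36). With a mitochondrial limit of 10% the satellite glia ratio was 2.11, past 1.5-fold.

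Notch3, a receptor known from vascular smooth muscle and pericytes, was found there. Pericytes had 39.4 CPM in DPN (58 UMIs) and 20.1 CPM in Control (30 UMIs), and smooth muscle had 30.7 CPM in DPN (87 UMIs) and 23.3 CPM in Control (54 UMIs). No other class passed 2.89 CPM in either library. The smooth muscle ratio was 1.32 with an interval that held 1 (0.928 to 1.89), and pericytes had under 100 UMIs, too few for a ratio by the rule used.

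Notch4, known from endothelium, was highest there at 64.5 CPM in DPN and 67.7 CPM in Control (ratio 0.952, 0.861 to 1.05). Pericytes came next with 29.2 CPM in DPN and 31.4 CPM in Control. The endothelial gate genes Cldn5, Flt1 and Cdh5 summed to 859 CPM in DPN and 1518 CPM in Control pericytes. In pericytes that passed no other gate they summed to 32.5 and 28.1 CPM. Notch4 was at 20.3 CPM in DPN and 10.8 CPM in Control in those cells. Satellite glia that passed no other gate had 12.9 and 18.4 CPM, so the second place of pericytes did not hold in Control. In the glia Notch4 was the receptor with a ratio below 1. Satellite glia had 13.0 CPM in DPN and 18.5 CPM in Control (ratio 0.701, 0.626 to 0.784), and the other glia had 9.03 CPM in DPN and 12.04 CPM in Control (ratio 0.750, 0.629 to 0.892). Neither passed 1.5-fold on this scale, although satellite glia did so when libraries were scaled on the median gene (0.617). With a mitochondrial limit of 10% the ratio was 1.03 in satellite glia and 0.465 in the other glia, past 1.5-fold lower, so the direction in satellite glia and the call in the other glia depend on that limit.

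**Figure D1:**
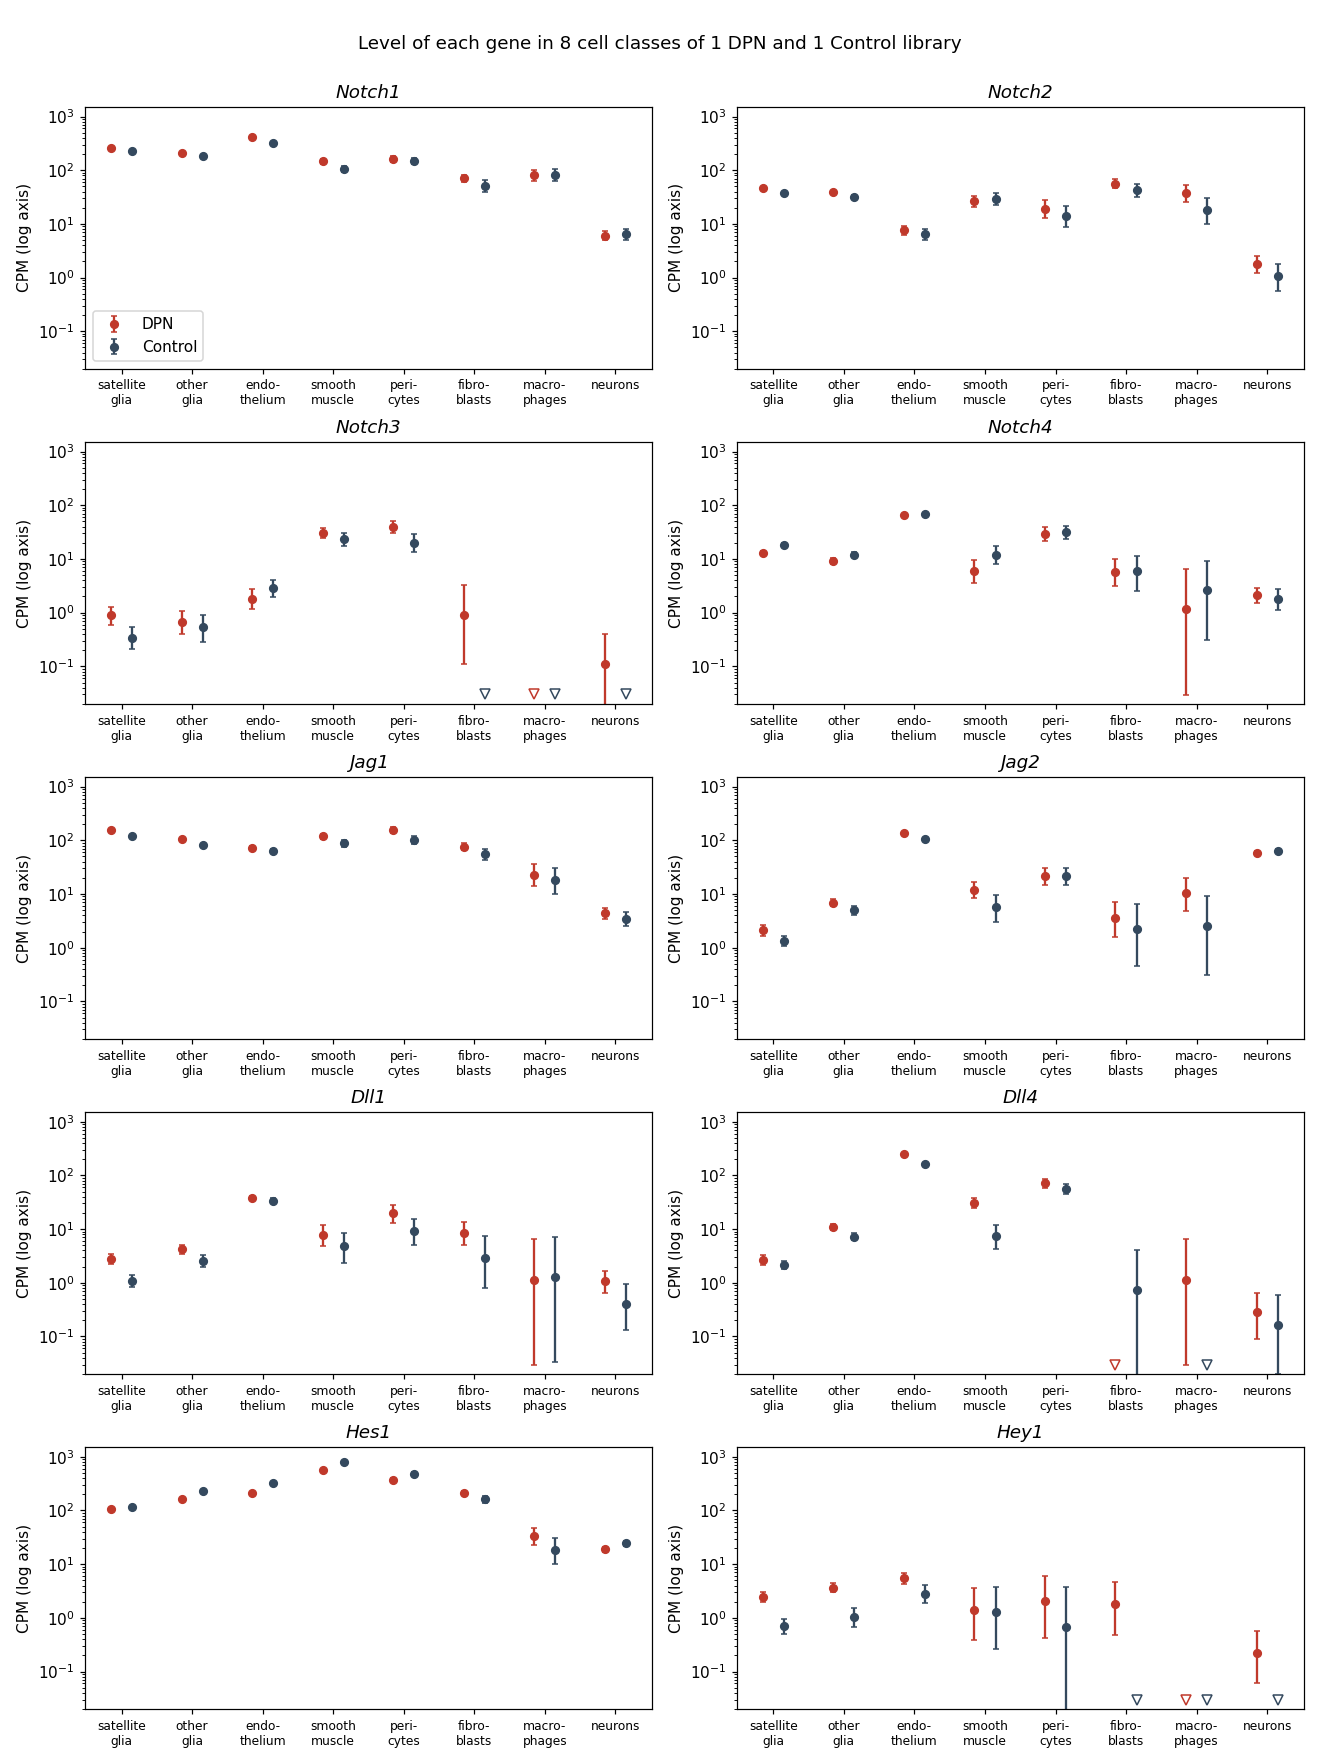
Level of each of the 10 genes (CPM, log axis) in 8 cell classes, DPN in red left of Control in dark blue, with exact 95% Poisson intervals that are cut at the lower edge of the axis. Open triangles at the bottom mark classes with no UMI. Dll4 stands highest in endothelium (249 CPM in DPN, 165 CPM in Control) and Hes1 in smooth muscle (556 CPM in DPN, 799.6 CPM in Control).

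Among the ligands, Jag1 was the widespread one. It stood at 159 CPM in DPN and 121 CPM in Control satellite glia, and at 157 CPM in DPN and 102 CPM in Control pericytes, which overlapped in both libraries. Neurons had 4.42 CPM in DPN and 3.49 CPM in Control. The ratio was above 1 in all 5 gates, although with a mitochondrial limit of 10% it was 0.905 in the other glia. Jag1 rose past 1.5-fold in pericytes only (231 UMIs in DPN, 153 UMIs in Control, ratio 1.53, 1.25 to 1.90). It was the only one of the 4 genes with enough UMIs there that did so, beside 21.7% of all genes past the same fold in pericytes (15% higher and 6.74% lower in DPN). The call was near the threshold, and without cells that pass another gate the ratio was 1.40. The other ratios of Jag1 were 1.31 in satellite glia (1.27 to 1.36), 1.28 in the other glia (1.21 to 1.36), 1.34 in smooth muscle (1.12 to 1.60) and 1.17 in endothelium (1.06 to 1.29).

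Jag2 had its highest level in endothelium and the next in neurons in both libraries. Endothelium had 135 CPM in DPN and 106 CPM in Control (ratio 1.28, 1.18 to 1.38). Neurons had 59.1 CPM in DPN and 64.1 CPM in Control (ratio 0.923, 0.841 to 1.01), and the remaining classes lay at 21.7 CPM or below. In satellite glia, its lowest class, Jag2 rose just past 1.5-fold, with 2.10 CPM in DPN (71 UMIs) and 1.34 CPM in Control (78 UMIs), a ratio of 1.57 (1.12 to 2.19), which was 1.38 when scaled on the median gene. Markers of endothelium, the class with most Jag2 and Dll1, and of neurons, the class next in Jag2, moved with it. In satellite glia Cldn5, Flt1 and Cdh5 summed to 36.4 CPM in DPN and 20.02 CPM in Control (ratio 1.82), and the list of 6 measured endothelial markers used to check the gates had a ratio of 1.44. The neuron list (Calca, Tac1, Gap43 and Prph) summed to 200 CPM in DPN and 114 CPM in Control (ratio 1.76). Neurons were not among the 5 gates, so leaving out cells in another gate does not bear on their markers. In cells that passed no other gate Cldn5, Flt1 and Cdh5 summed to 12.7 CPM in DPN and 8.34 CPM in Control, and the Jag2 ratio was 1.52. The part of these markers in the result was not tested further. Thinned to 1000 UMIs, 9.91% of neurons in DPN and 5.36% in Control had a Jag2 UMI (75.2% and 89.3% unthinned), against 0.266% and 0.218% of satellite glia. In neurons the ratio moved to 1.04 when each cell had equal weight and to 1.85 after thinning, so no direction is given.

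Dll1 was highest in endothelium, at 38.3 CPM in DPN and 33.9 CPM in Control (ratio 1.13, 0.987 to 1.30). In glia it was scarce and rose past 1.5-fold. Satellite glia had 2.76 CPM in DPN (93 UMIs) and 1.10 CPM in Control (64 UMIs), a ratio of 2.50 (1.80 to 3.50), and the other glia had 4.19 CPM in DPN (111 UMIs) and 2.59 CPM in Control (63 UMIs), a ratio of 1.62 (1.18 to 2.24). The call in the other glia was lost in 3 of 11 settings, with 1.37 after thinning, 1.42 with a mitochondrial limit of 10% and 1.45 when scaled on the median gene. Over each whole gate Cldn5, Flt1 and Cdh5 had ratios of 1.82 in satellite glia and 1.07 in the other glia. In cells that passed no other gate Dll1 had a ratio of 2.56 in satellite glia and 2.04 in the other glia. Cldn5, Flt1 and Cdh5 were also higher in DPN in those cells. They summed to 12.7 CPM in DPN and 8.34 CPM in Control satellite glia, and to 20.3 and 9.97 CPM in the other glia. Their part in the result was not tested. Thinned to 1000 UMIs, 3 of 3012 satellite glia in DPN and 5 of 4135 in Control had a Dll1 UMI, too few to show a difference.

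Dll4, the Delta-like ligand known from arterial and sprouting endothelium, was highest in that class in both libraries. Endothelium had 249 CPM in DPN (3405 UMIs) and 165 CPM in Control (1718 UMIs). Dll4 rose there, with a ratio of 1.51 (1.42 to 1.60), just over the threshold. Pericytes were next with 72.0 CPM in DPN and 56.2 CPM in Control. Pericytes that passed no other gate had 50.8 CPM in DPN and 37.9 CPM in Control. Fibroblasts, a class without cells of any gate, had 0 UMIs in DPN and 1 UMI in Control. Thinned to 1000 UMIs, 18.3% of endothelial cells in DPN and 13.0% in Control had a Dll4 UMI (66.6% and 64.2% unthinned), against 0.266% and 0.242% of satellite glia.

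In smooth muscle Dll4 had the highest ratio of all 10 genes, 4.19 (2.47 to 7.51), from 87 UMIs in DPN and 17 UMIs in Control (30.7 and 7.34 CPM). Dll4 was the only one of 6 genes past 1.5-fold there, beside 22.4% of all genes (18.4% higher and 4.01% lower in DPN). Markers of endothelium moved with it. The endothelial gate genes Cldn5, Flt1 and Cdh5 summed to 254 CPM in DPN and 88.0 CPM in Control smooth muscle, a ratio of 2.89. The list of 6 endothelial markers summed to 376 CPM in DPN and 403 CPM in Control, a ratio of 0.931, with 1 marker at 0 in Control. Of these 6 markers 5 were higher in DPN, such as Kdr at 38.1 CPM in DPN and 4.75 CPM in Control. Esam, the largest of the 6, was lower, at 243 CPM in DPN and 351 CPM in Control. In smooth muscle cells that passed no other gate Cldn5, Flt1 and Cdh5 summed to 24.9 CPM in DPN and 15.3 CPM in Control. Dll4 was at 12.2 CPM in DPN (25 UMIs) and 5.65 CPM in Control (10 UMIs) in those cells, a ratio of 2.16. The part of these markers in the result beyond the removal of such cells was not tested. In the other glia Dll4 also passed the fold (10.9 CPM in DPN, 7.15 CPM in Control, ratio 1.52, 1.26 to 1.85), but cells in 1 gate only had 4.37 CPM in DPN and 3.54 CPM in Control, a ratio of 1.24.

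**Figure D2:**
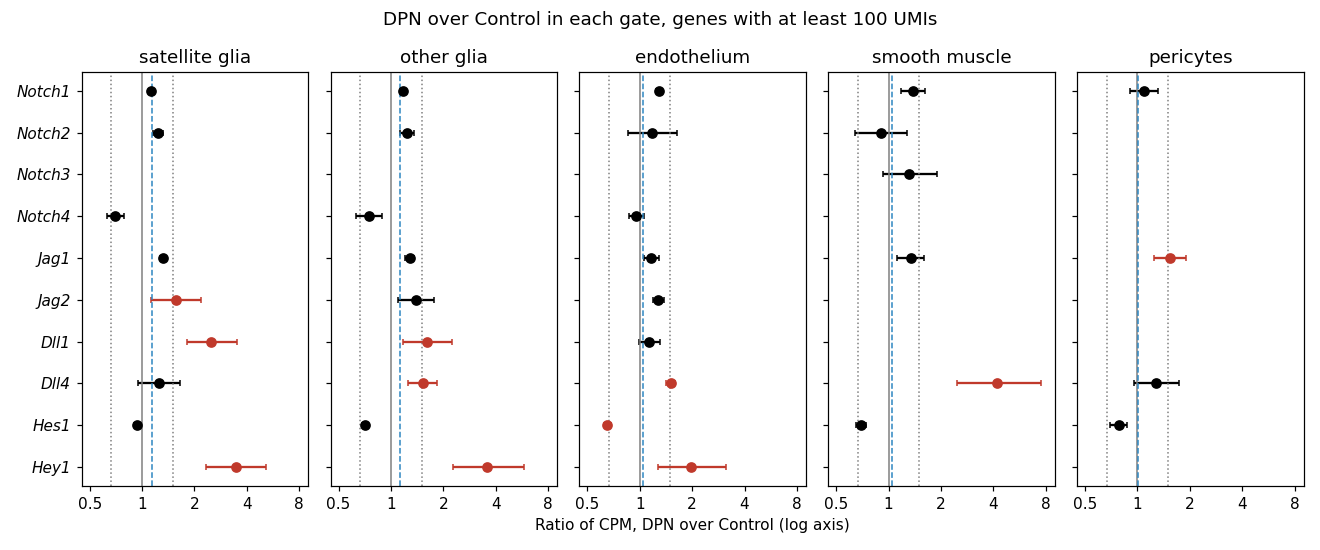
DPN over Control ratio of CPM (log axis) for each gene with at least 100 UMIs over both libraries, in the 5 gates, with exact 95% intervals. Grey lines mark 1 and 1.5-fold either way, the dashed blue line the median gene of that gate, and red points passed 1.5-fold. Dll4 in smooth muscle (4.19) lies farthest right and Hes1 in endothelium (0.651) farthest left.

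Hes1 had more UMIs than Hey1 in every class and stood highest in mural cells. Smooth muscle had 556 CPM in DPN (1576 UMIs) and 799.6 CPM in Control (1853 UMIs), a ratio of 0.696 (0.650 to 0.744), and pericytes had 369 CPM in DPN and 473 CPM in Control, a ratio of 0.780 (0.696 to 0.873). Smooth muscle, pericytes and the next class did not overlap in either library. Hes1 fell in endothelium, to 214 CPM in DPN (2921 UMIs), against 328 CPM in Control (3412 UMIs), a ratio of 0.651 (0.619 to 0.684). Some markers of mural cells, the classes with most Hes1, moved with it and others did not. The mural list summed to 220 CPM in DPN and 398 CPM in Control endothelium, a ratio of 0.553, and in smooth muscle its ratio was 0.658. The pericyte gate genes Rgs5, Kcnj8 and Abcc9 had a ratio of 0.615 in endothelium but 1.18 in smooth muscle. Myh11, the smooth muscle gate gene, had ratios of 1.22 in endothelium (0.991 to 1.51) and 1.20 in smooth muscle. In endothelial cells that passed no other gate Hes1 stood at 210.4 CPM in DPN and 333 CPM in Control. The part of these markers in the result was not tested further.

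The ratio of Hes1 was below 1 in all 5 gates. The other glia had 167 CPM in DPN and 234 CPM in Control (ratio 0.713, 0.685 to 0.742), and satellite glia had 107 CPM in DPN and 115 CPM in Control (ratio 0.932, 0.894 to 0.970). Only endothelium passed 1.5-fold on the main scale, where 4.58% of all genes did so in that direction. The sign was kept in all 5 gates under every alternative tried. Thinned to 1000 UMIs, 16.5% of endothelial cells in DPN and 25.7% in Control had a Hes1 UMI (63.2% and 72.8% unthinned), against 4.95% and 2.68% of neurons, a class with little Hes1. Immediate early genes, a list of 12 genes such as Fos and Egr1 that respond fast to stimuli and to tissue dissociation, moved the other way as a sum. The summed ratio was 1.32 in endothelium, 1.66 in satellite glia, 1.44 in the other glia, 1.18 in smooth muscle and 1.34 in pericytes. Of the 12 genes, 8 were higher in DPN in endothelium, 11 in satellite glia, 11 in the other glia, 10 in smooth muscle and 12 in pericytes. In endothelium Dusp1, Ier2, Junb and Nr4a1 were lower in DPN, on the side of Hes1. The part of the immediate early genes in the results for the 10 genes was not tested.

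In fibroblasts Hes1 lay on the other side, at 212 CPM in DPN (473 UMIs) and 161 CPM in Control (219 UMIs), a ratio of 1.32 (1.12 to 1.55). After thinning, the ratio was 0.819, and 14.6% of fibroblasts in DPN and 15.1% in Control had a Hes1 UMI (50.3% and 51.3% unthinned). The thinned shares rest on 47 cells in DPN (interval 10.9% to 18.9%) and 30 cells in Control (10.4% to 20.8%). Thinning thus did not show the higher level, but these intervals are too wide to settle whether it holds. In 9 of 10 settings the ratio stayed above 1.

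Hey1, the second target, was scarce in all classes, at 5.48 CPM in DPN and 2.79 CPM in Control in endothelium, its highest class. It rose past 1.5-fold in 3 gates. The ratio was 3.45 in satellite glia (82 UMIs in DPN, 41 UMIs in Control, 2.34 to 5.14), 3.57 in the other glia (97 and 25 UMIs, 2.28 to 5.78, but 1.96 after thinning) and 1.97 in endothelium (75 and 29 UMIs, 1.26 to 3.13). Hes1 and Hey1 thus stood on opposite sides of 1 in these gates. After thinning, Hey1 had a UMI in 0.199% of satellite glia in DPN and 0.0726% in Control (2.66% and 0.967% unthinned), so these ratios rest on few molecules.

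Counted over the genes with at least 100 UMIs, 3 of 9 rose in satellite glia (Jag2, Dll1 and Hey1) and none fell, beside 27.9% of all genes past 1.5-fold either way (25.7% higher and 2.29% lower in DPN). In the other glia 3 of 9 rose (Dll1, Dll4 and Hey1), beside 25.6% of all genes (23.3% higher and 2.32% lower). In endothelium Dll4 and Hey1 rose and Hes1 fell among 9 genes, beside 23.3% of all genes (18.7% higher and 4.58% lower). These shares are close to the background, so the count of calls sets the 10 genes apart in none of these 3 gates. Among the comparison classes 0 of 4 genes passed in fibroblasts, beside 31.3% of all genes, 0 of 1 in macrophages, beside 21.6%, and 0 of 4 in neurons, beside 22.1%. The median log2 ratio of the 9 genes with at least 100 UMIs was 0.32 in satellite glia, 0.36 in the other glia and 0.24 in endothelium. Over all genes with at least 100 UMIs it was 0.19, 0.16 and 0.06.

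Within endothelium the ligands Dll4 and Jag2 differed between marker subsets, whereas Dll1 and Jag1 overlapped. Cells with arterial markers (Gja4, Gja5, Sox17, Efnb2 and Bmx) numbered 692 in DPN and 375 in Control, and cells with venous markers (Selp and Nr2f2) numbered 60 in DPN and 43 in Control. The arterial genes themselves summed to 726 CPM in DPN and 632 CPM in Control endothelium, and the venous genes to 175 and 235 CPM, so the subsets may not hold like cells in the 2 libraries. Nr2f2 was not particular to endothelium, at 52.5 CPM in DPN and 52.2 CPM in Control there. Pericytes had 349 and 252 CPM, and satellite glia 109 and 73.8 CPM. Whether the venous-marker cells include mixed cells was not tested. Dll4 stood at 272 CPM in DPN and 189 CPM in Control arterial-marker cells, against 132 and 105 CPM in venous-marker cells. Jag2 stood at 161 CPM in DPN and 134 CPM in Control arterial-marker cells, against 48.2 and 35.4 CPM in venous-marker cells. Notch4 followed the same order, at 75.1 CPM in DPN and 77.9 CPM in Control arterial-marker cells, against 15.5 and 23.0 CPM in venous-marker cells. For Dll4, Jag2 and Notch4 the arterial and venous intervals did not overlap within either library. Dll1 stood at 41.0 CPM in DPN and 33.2 CPM in Control arterial-marker cells, against 51.3 and 53.2 CPM in venous-marker cells. Jag1 stood at 77.1 CPM in DPN and 72.6 CPM in Control arterial-marker cells, against 65.3 and 47.8 CPM in venous-marker cells. The intervals of Dll1 and Jag1 overlapped in both libraries.

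The higher Dll4 in DPN was also present inside the arterial-marker subset (ratio 1.44, 1.34 to 1.55) and in cells with neither marker set (1.65, 1.475 to 1.84). In the venous-marker cells the ratio was 1.26 with an interval that held 1 (0.896 to 1.79), and in cells with both sets it was 0.975 (0.740 to 1.28). Hes1 had a ratio of 0.621 in arterial-marker cells (0.581 to 0.664), 0.695 with neither set (0.638 to 0.758), 0.708 with both (0.559 to 0.892) and 0.817 in venous-marker cells (0.649 to 1.03). The differences between subsets were not tested.

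**Figure D3:**
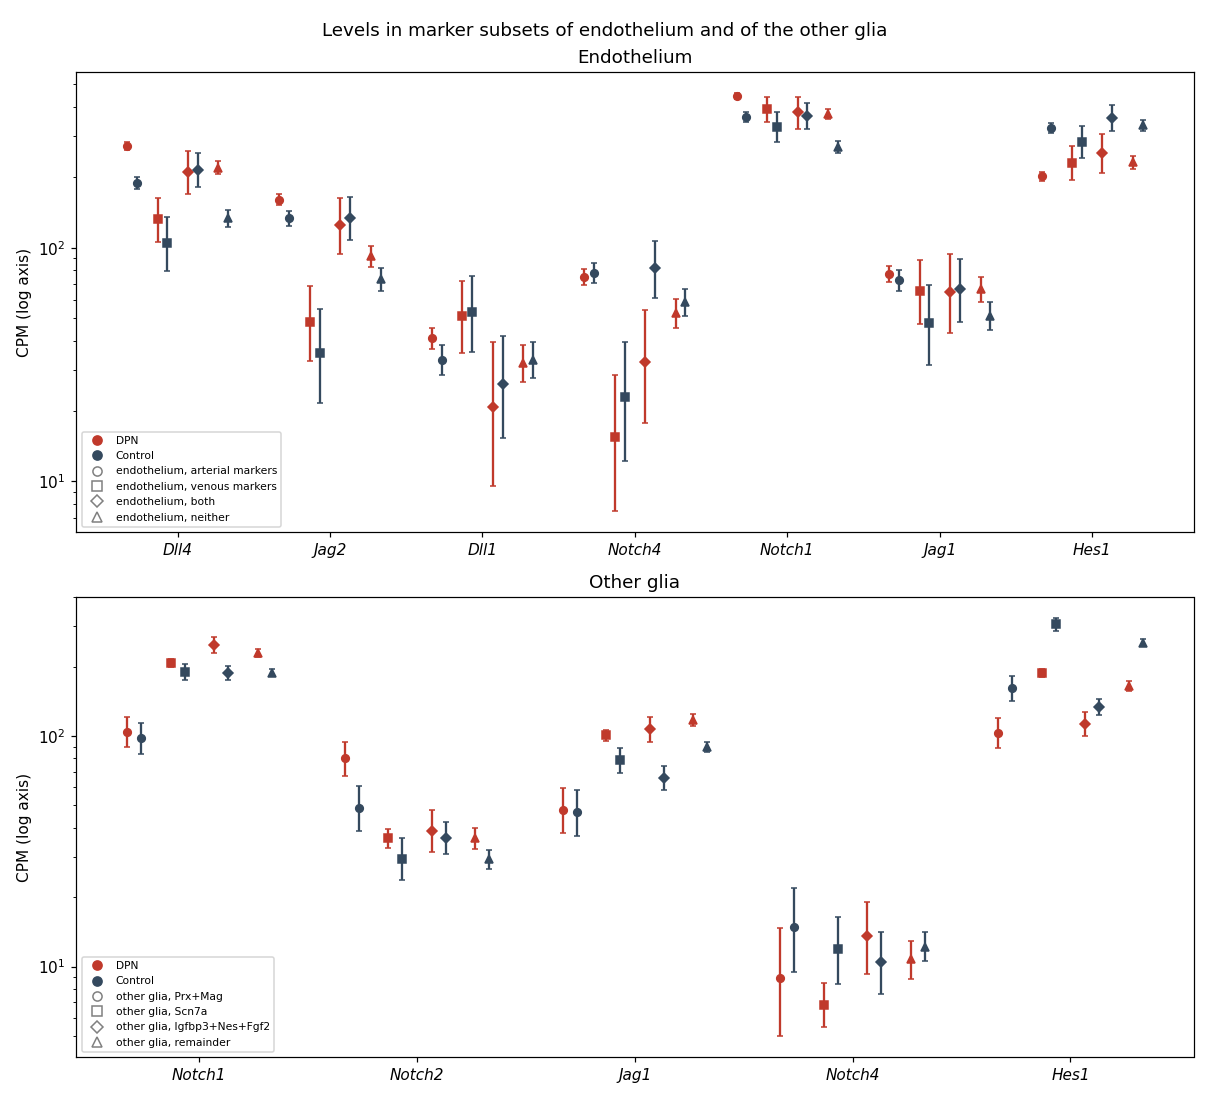
Levels (CPM, log axis) in marker subsets of endothelium (upper panel) and of the other glia (lower panel), DPN in red left of Control in dark blue, symbols for the subsets, with exact 95% Poisson intervals. Dll4, Jag2 and Notch4 are higher with arterial than with venous markers. In the lower panel Notch1 is lower and Notch2 higher in Prx and Mag cells than in Scn7a cells. The subsets other than Prx and Mag do not hold like cells in the 2 libraries, and the Prx and Mag cells may not either.

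The other glia hold myelin-type cells, marked by Prx and Mag, and cells marked by Scn7a. Their shares differed between the libraries, with 323 Prx and Mag cells in DPN and 210 in Control, and 2181 Scn7a cells in DPN and 560 in Control. Scn7a itself was higher in DPN in all 8 classes, at 439 CPM in DPN and 129 CPM in Control in the other glia (ratio 3.40) and 192 and 54.1 CPM in satellite glia (3.55), so the Scn7a subset and those taken after it do not hold like cells in the 2 libraries. Notch1 stood at 104 CPM in DPN and 98.0 CPM in Control Prx and Mag cells, against 208 and 189 CPM in Scn7a cells. Notch2 was turned round, at 79.9 CPM in DPN and 48.7 CPM in Control Prx and Mag cells, against 36.1 and 29.4 CPM in Scn7a cells. In Prx and Mag cells Notch2 had a ratio of 1.64 (1.23 to 2.20). The genes of this subset also differed between the libraries. In the other glia Mag was at 13.0 CPM in DPN and 19.7 CPM in Control, and Prx at 73.2 and 60.8 CPM. The median depth of Prx and Mag cells was 4010 UMIs in DPN and 5585 UMIs in Control. This subset may thus not hold like cells in the 2 libraries either.

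In Prx and Mag cells, which were set apart before Scn7a was used, Hes1 stood at 104 CPM in DPN and 161 CPM in Control, a ratio of 0.642 (0.527 to 0.780). Jag1 stood at 48.0 CPM in DPN and 46.8 CPM in Control in these cells, a ratio of 1.02 (0.739 to 1.42). No ratio is given for the other glial subsets, since their cells were split by a gene that itself differed between the libraries.

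The remaining genes of the pathway were taken from a list of 46, of which 43 were measured. In satellite glia 11 of 37 with enough UMIs rose and 1 fell, beside 25.7% of all genes higher and 2.29% lower. Adam10, the protease that makes the first cut, stood at 89.2 CPM in DPN and 34.6 CPM in Control (ratio 2.58, 2.44 to 2.73). Mib1, the ubiquitin ligase that acts on ligands in the sending cell, had a ratio of 2.80 (2.48 to 3.17), and Rbpj, the DNA-binding partner, one of 2.40 (2.21 to 2.61). Heyl, a further target, fell to 41.4 CPM in DPN, against 65.7 CPM in Control (ratio 0.630, 0.592 to 0.670).

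In the other glia 9 of 37 rose and none fell, beside 23.3% of all genes higher and 2.32% lower, with Maml2, a coactivator of the nuclear complex, at 3.996 (2.89 to 5.63) and Mib1 at 2.44 (2.12 to 2.82). In endothelium 9 of 35 rose and 2 fell, beside 18.7% of all genes higher and 4.58% lower. Those that rose included Maml2 at 2.73 (2.03 to 3.73) and Rbpj at 2.55 (2.19 to 2.98), and those that fell were Heyl at 0.627 (0.509 to 0.772) and Numbl at 0.596 (0.421 to 0.842). In smooth muscle Rbpj (3.62, 2.58 to 5.19), Adam10 (3.14, 2.19 to 4.62) and Spen (1.81, 1.41 to 2.32) rose and Hes6 fell (0.660, 0.445 to 0.973), of 22, beside 18.4% of all genes higher and 4.01% lower. In pericytes only Rbpj rose, to 105 CPM in DPN, against 36.8 CPM in Control (2.85, 2.08 to 3.95), of 14, beside 15% of all genes higher and 6.74% lower. Rbpj was the only one of the 14 genes with enough UMIs in pericytes that rose in all 5 gates. The median log2 ratio of the list was 0.32 in satellite glia, 0.12 in the other glia and 0.05 in endothelium, so the list as a whole was not above the median of all genes in the last 2.

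The other targets did not move as one. Hey2 had 181 CPM in DPN and 130 CPM in Control satellite glia (ratio 1.39, 1.34 to 1.44). Nrarp, a feedback inhibitor of Notch, had 358 CPM in DPN and 308 CPM in Control satellite glia (1.16, 1.14 to 1.19), and 406 CPM in DPN and 483 CPM in Control smooth muscle (0.841, 0.774 to 0.914). Heyl was below 1 in all 5 gates, like Hes1, with 95.2 CPM in DPN and 109 CPM in Control pericytes (0.873, 0.692 to 1.10).

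**Figure D4:**
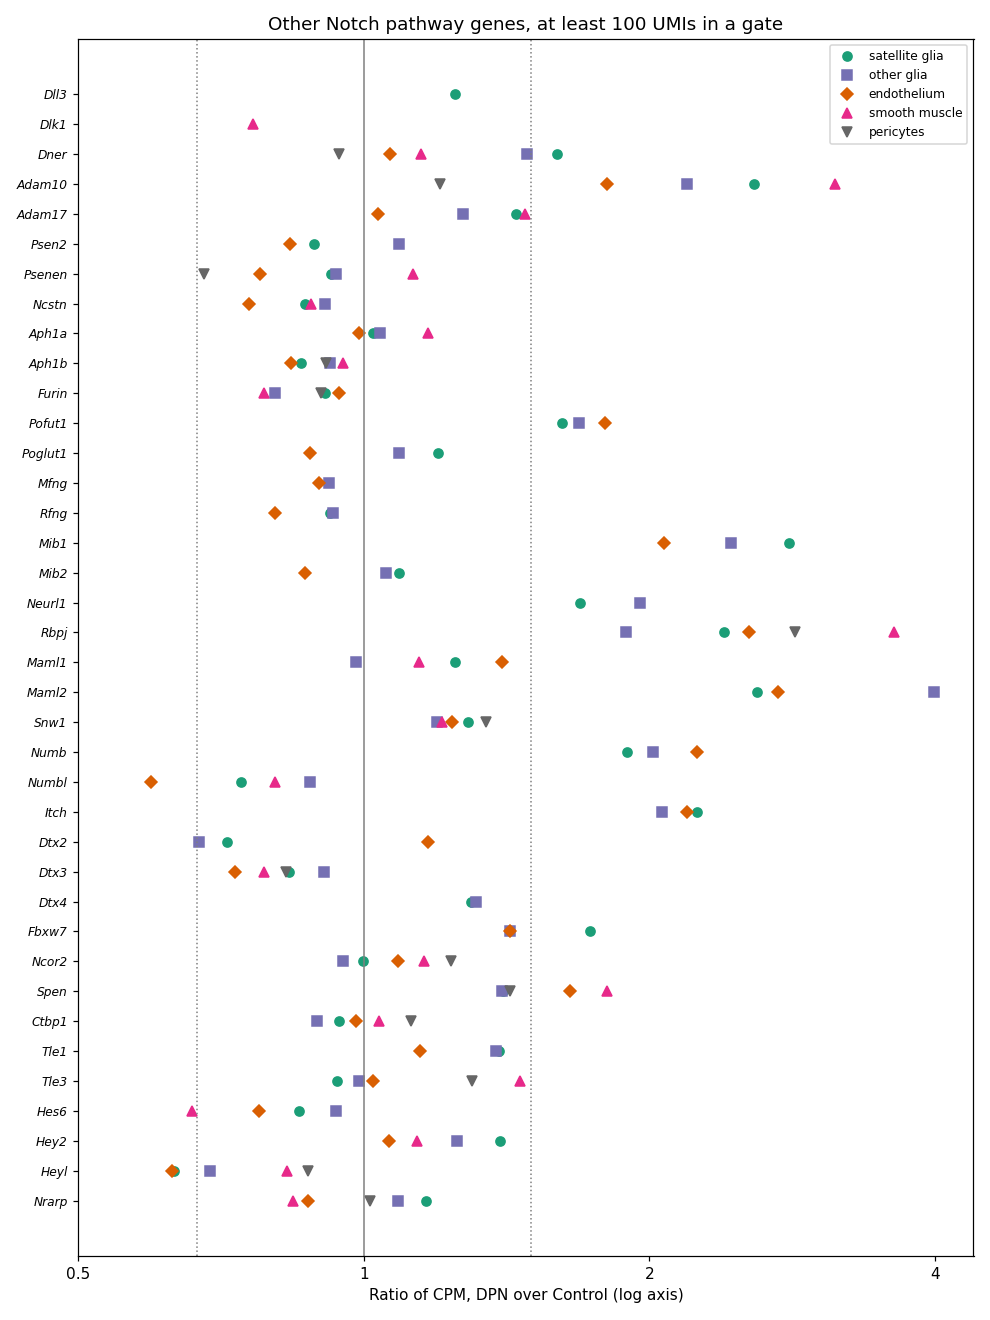
DPN over Control ratio of CPM (log axis) for other Notch pathway genes with at least 100 UMIs over both libraries in a gate, with 1 symbol per gate and lines at 1 and 1.5-fold either way. Rbpj lies above 1.5 in all 5 gates, and Heyl lies below 1 in all 5.

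Genes with a like pattern were sought over the 8 classes by the Pearson correlation of log2(CPM + 1), in each library on its own. For 5 of the 10 genes, 1 gene was among the 3 most alike in both libraries. Dll4 was paired with Ptprb, a phosphatase of endothelium (r = 0.99 in DPN and in Control), Notch3 with Itih3 (r = 0.98 in DPN and 0.99 in Control), Notch1 with Cst3 (r = 0.98 in both), Jag2 with Mcf2l (r = 0.98 in DPN and 0.99 in Control) and Notch2 with Maf (r = 0.97 in both). These describe 8 classes that share a library, and they say nothing of shared function.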

How the data were processed

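Single-cell suspensions of DRG were run on the 10x Genomics platform, and per the labels the reads were processed with Cell Ranger 3.1.0. No genome build is named in the sources used here. The authors deposited raw UMI counts per gene and barcode for each library, and all values are from these counts. With 1 library per group no p-value was computed.

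Cells with at least 1000 UMIs and under 20% mitochondrial UMIs were kept and gated on markers per 10000 UMIs (satellite glia at least 12, other glia 5, endothelium 10, smooth muscle 2, pericytes 10, comparison classes 20). No doublet caller was run, and cells in more than 1 gate were left out as an alternative. Counts were summed per class and library. Ratios have exact conditional binomial intervals, levels exact Poisson intervals and shares Clopper-Pearson intervals, all at 95%. A gene was called past 1.5-fold (at least 1.5 or at most 0.667) when it had at least 100 UMIs over both libraries. Settings changed in turn were the gates, the mitochondrial limit, the minimum UMIs, an upper limit on cells, the scaling, the weight of cells, the depth and the minimum count. The computation was tested on simulated data. All 10 genes were named, and of the 46 other pathway genes up to 3 each way per gate past the fold; Hey2, Nrarp and Heyl outside that rule were named after their values were seen. The genes and lists were chosen with earlier results of these data known. The immediate early list was added after the ratios had been seen, and the TGGGAA motif was chosen after other motifs had been looked at. Some genes of the lists are not reported here by name. Python 3.11.15, numpy 2.4.6, scipy 1.17.1 and pandas 2.3.3 were used.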

Additional observations from a re-analysis of the deposited data

Results flagged for a closer look

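Hes1 differed in direction between cell classes. Its DPN over Control ratio was above 1 in fibroblasts (1.32) and below 1 in satellite glia (0.932), other glia (0.713), endothelium (0.651), smooth muscle (0.696), pericytes (0.780) and neurons (0.769). The difference was not tested, as there was 1 library per group. The fibroblast ratio stayed above 1 in 9 of 10 settings and was 0.819 after thinning. The thinned value rests on few cells with a Hes1 UMI, 47 in DPN and 30 in Control.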

How the results depend on the processing

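Of the 11 ratios past 1.5-fold, 5 stayed past it under every setting that gave a value: Dll1 and Hey1 in satellite glia, Hey1 in the other glia and endothelium, and Dll4 in smooth muscle (2.16 to 5.51). The others lay near the threshold, such as Dll4 in endothelium (1.45 to 1.56) and Jag1 in pericytes (1.35 to 1.72). No called ratio changed sign. Counts of genes past 1.5-fold moved as follows. In satellite glia, 1 of 5 passed after thinning to 1000 UMIs, against 3 of 9. With a mitochondrial limit of 10%, 1 passed in the other glia and 1 in endothelium, against 3 each, and 2 in smooth muscle and 2 in pericytes, against 1 each. In smooth muscle, 2 passed with median-ratio scaling, 2 with each cell weighted equally, 3 after thinning and 4 with a minimum of 20 UMIs. In pericytes, 0 passed with cells in 1 gate only, with AY172581 genes counted as mitochondrial, within 4 MADs or with equal weights, and 3 with a minimum of 20 UMIs. Median-ratio scaling changed which genes passed, while each of those named next kept its side of 1. In satellite glia Notch4 passed lower and Jag2 no longer passed higher. In the other glia and endothelium Hes1 passed lower, as it already did in endothelium, and only Hey1 passed higher. In smooth muscle Hes1 passed lower beside Dll4 passing higher. The causes were not tested. A setting gave no value for a gene with under 20 UMIs or none in Control, a limit chosen after seeing the data, as were the alternatives for Hes1 in fibroblasts and Jag2 in neurons. No paired analysis was possible because each group had 1 library. Genes with under 100 UMIs in a class have no ratio by the rule used, and no setting measures differences between rats.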

Other observations

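Neurons held little of the receptors but had Notch pathway genes past 1.5-fold, with 8 of 29 higher and 1 lower in DPN, beside 22.1% of all genes past the fold. Mib1 stood at 8.56 CPM in DPN and 2.52 CPM in Control (ratio 3.40, 2.30 to 5.18), and Nrarp at 11.5 CPM in DPN and 17.4 CPM in Control (0.663, 0.545 to 0.807). In macrophages Rbpj had 292 CPM in DPN and 172 CPM in Control (1.70, 1.37 to 2.11), and in fibroblasts Heyl had 20.6 CPM in DPN and 52.9 CPM in Control (0.390, 0.263 to 0.572). Within endothelial cells thinned to 1000 UMIs, Hes1 was found in 18.5% of cells with a Dll4 UMI and 16.04% of those without in DPN, and in 21.2% and 26.4% in Control.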
